A study of Mus musculus with 8 samples.

Results

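Hepatic stellate cell genes are genes used to recognise the stellate cells of the liver, although other liver cells also make the RNA of some of them, and 10 were examined out of the 24451 genes in the table of normalized counts. The 10 were taken by symbol: Lrat, Reln, Hgf, Ngfr and Ecm1 as genes of quiescent stellate cells, and Des, Pdgfra, Pdgfrb, Rgs5 and Hand2 as general genes of stellate cells or pericytes. RNA was sequenced from the left lobe of the liver of 8 male C57BL/6 mice, 18 weeks old and fasted for 6 hours. The 4 Brap LKO livers, labelled liver knockout, came from mice with the genotype Brap fl/fl; Alb Cre+, and the 4 Brap F/F livers, labelled wild type, from mice with Brap fl/fl; Alb Cre-, so that both groups carried floxed Brap and only the LKO group carried Cre. The comparison addresses what loss of Brap in the liver does to the stellate cell genes. The albumin promoter is used to drive Cre in hepatocytes and not in stellate cells. The stellate cells of both groups would then keep the floxed gene, which these data do not measure. Each liver had between 26280884 and 33313914 reads counted over genes. Values are normalized counts, the reads of a gene divided by a size factor for the liver, and a log2 difference is the mean of log2(normalized count + 1) in LKO livers minus that in F/F livers.

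Stellate cells lie between the sinusoidal endothelium and the hepatocytes, and in a healthy liver they store vitamin A as retinyl esters in lipid droplets. After injury they lose the droplets, divide in answer to platelet-derived growth factor, and become myofibroblasts that lay down collagen. They also share many genes with the pericytes of other tissues, such as those for the growth factor receptors and for desmin.

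Normalized counts of Brap, the targeted gene, were 4042, 4203, 4065 and 3641 in LKO replicates 1 to 4 and 4410.2, 4235, 3994 and 4106 in F/F replicates 1 to 4. The groups overlapped, with a log2 difference of -0.07 (LKO minus F/F; SE 0.0676, limma adjusted p = 0.631). Reads summed over the whole gene do not show whether the floxed stretch is missing, so these values do not check the labels.

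All 10 genes were detected in every liver, with at least 55 reads each, and all 10 passed the filter of a mean normalized count of 5. The lowest read count was that of Ngfr in a Brap F/F liver. In whole liver, fewer stellate cells and less of an RNA per cell cannot be told apart. Levels of different genes were compared as normalized counts per kilobase of exon. In the Brap F/F livers Ecm1 was the most abundant per kilobase (1434 ± 566, mean ± SD, n = 4), followed by Rgs5 (150 ± 29.9), Hand2 (111 ± 23.6) and Lrat (96.8 ± 20.4). Reln (79.7 ± 38.1) and Pdgfrb (44.8 ± 7.61) were in the middle of the order, and Hgf (29.2 ± 12.7), Des (28.9 ± 1.93), Ngfr (21.2 ± 6.27) and Pdgfra (18.3 ± 8.40) were the least abundant. Ecm1 stood apart from the others beyond its spread, whereas Hand2, Lrat and Reln did not differ beyond theirs, nor did Hgf, Des, Ngfr and Pdgfra. In the Brap LKO livers Ecm1 (928 ± 179), Rgs5 (173 ± 11.8) and Hand2 (127 ± 29.1) again had the highest levels per kilobase, and Ngfr (25.6 ± 1.86) had the lowest.

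**Figure D1:**
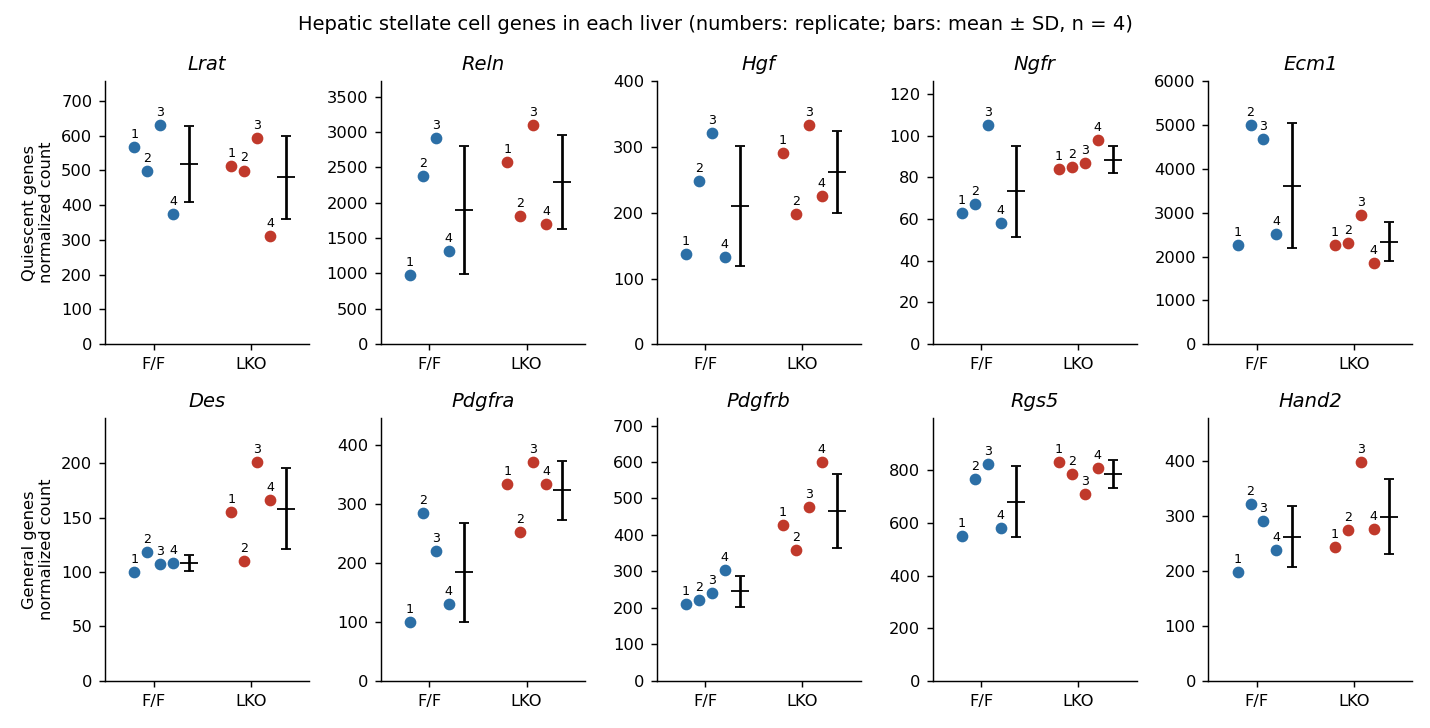
Normalized count of each of the 10 stellate cell genes in each of the 8 livers (points), with the group mean and SD (bars beside the points), for Brap F/F and Brap LKO. For Pdgfrb all 4 LKO livers, 358 to 601, lie above all 4 F/F livers, 212 to 305, and for the other 9 genes the groups overlap.

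Between the groups, 1 of the 10 genes had an adjusted p under 0.05 in limma, the threshold used throughout, beside 0.769% of all 15352 tested genes (118 genes). Its groups did not overlap, and every LKO liver was the higher, which held for 5.48% of the tested genes (841 genes). In DESeq2 the same gene passed, beside 3.70% (607 of 16387 genes with an adjusted p). At an unadjusted p under 0.05 in limma there were 3 of the 10, beside 15.8% (2429 genes). Of the 10, 8 had a log2 difference above 0, beside 48.0% (7375 genes), and the exceptions were Lrat and Ecm1, of which Lrat was above 0 with the same total in every liver (0.03). The median log2 difference of the 10 was 0.34, and that of all tested genes was -0.01. The 5 quiescent genes had a median of 0.31 (3 of 5 higher, 0 past the threshold in limma, 0 at an unadjusted p under 0.05, and 0 past it in DESeq2 or edgeR). The 5 general genes had a median of 0.51 (5 of 5 higher, 1 past the threshold). Pdgfra, Pdgfrb and Des had the 3 highest differences.

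**Figure D2:**
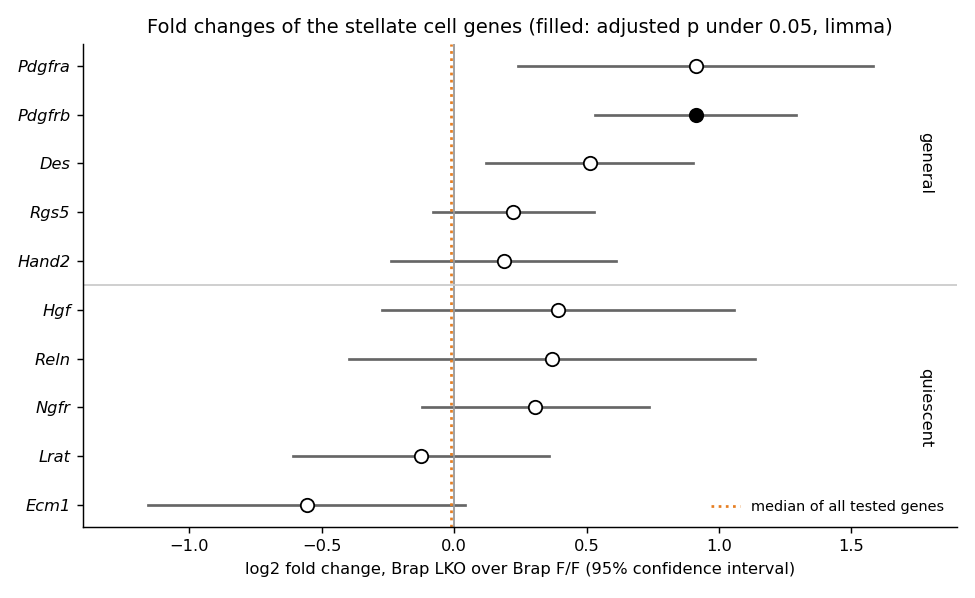
Log2 fold change of each stellate cell gene, Brap LKO minus Brap F/F (points, filled where the limma adjusted p is under 0.05), with the 95% confidence interval (bars); the dotted line is the median of all tested genes. The interval of Pdgfrb runs from 0.53 to 1.29, and Pdgfra and Des also have intervals above 0 but missed the adjusted threshold.

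Lrat (ENSMUSG00000028003, chromosome 3, bases 82892579 to 82903973 of mm10) encodes the enzyme that makes the retinyl esters that stellate cells store, by moving a fatty acid from lecithin onto retinol. Its normalized counts were 513, 499.5, 594 and 312 in LKO replicates 1 to 4 and 567, 499, 631 and 376 in F/F replicates 1 to 4. In both groups replicate 4 was the lowest and replicate 3 the highest, and the groups overlapped over most of their range. Equal replicate numbers are not shown to mark a pair of livers. The log2 difference was -0.12 (SE 0.214, 95% confidence interval -0.61 to 0.36, limma adjusted p = 0.804). Without LKO replicate 4, the lowest liver of all 8, it was 0.07, and leaving out any other single liver gave -0.27 to -0.02. With the animal-number series, the livers split at the median animal number, as a covariate it was -0.37. The lower numbers were LKO replicates 1 to 3 and F/F replicate 1, and the higher LKO replicate 4 and F/F replicates 2 to 4. Group and series thus largely coincided.

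Of the genes of retinoid storage and use, 8 of 21 tested were higher in LKO livers and 13 lower, with a median of -0.07. That split turned to 13 higher with the same total in every liver (median 0.09) and to 11 higher after quantile normalization (median 0.01). In the list 2 genes were also in other lists. Rarg, a retinoic acid receptor, was the only gene of that list past the threshold in limma, beside 0.769% of all tested genes. Of the 21, 2 had an unadjusted p under 0.05, beside 15.8%, and 1 gene passed in DESeq2, beside 3.70%. Normalized counts of Rarg were 236, 212, 243 and 233 in LKO replicates 1 to 4 and 155, 154, 172 and 164 in F/F replicates 1 to 4. No LKO liver overlapped the F/F range (log2 difference 0.52, limma adjusted p = 0.0444). Cyp26b1, which breaks down retinoic acid, had 194, 273, 513 and 85.3 in LKO replicates 1 to 4 and 228, 557, 658 and 132 in F/F replicates 1 to 4, with replicates 2 and 3 the highest in both groups (-0.56, limma adjusted p = 0.679). Dgat1, which can also esterify retinol, had a log2 difference of -0.11 (limma adjusted p = 0.778), and Cyp26a1 had one of 0.35 (limma adjusted p = 0.653). The most abundant genes of the list, Rbp4 and Aldh1a1, had log2 differences of -0.22 and -0.33.

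Reln (ENSMUSG00000042453, chromosome 5, bases 21884454 to 22344702 of mm10) encodes reelin, a secreted glycoprotein that binds the receptors encoded by Vldlr and Lrp8. Normalized counts of Reln were 2579.6, 1808, 3101 and 1704 in LKO replicates 1 to 4 and 974, 2379, 2909 and 1311 in F/F replicates 1 to 4. F/F replicates 1 and 4 were the lowest of the 8 livers and LKO replicate 3 the highest, and F/F livers spanned a 2.99-fold range. Between the groups Reln differed by 0.37 on the log2 scale (SE 0.340, limma adjusted p = 0.619), and this was 0.10 without F/F replicate 1, 0.24 without F/F replicate 4, 0.21 without LKO replicate 3 and 0.62 without F/F replicate 3. Vldlr had 37.3, 28.0, 19.2 and 17.7 in LKO replicates 1 to 4 and 17.1, 182, 185 and 20.6 in F/F replicates 1 to 4, so that F/F replicates 2 and 3 stood far above the other 6 livers (log2 difference -1.25, limma adjusted p = 0.462). Dab1, the adaptor that carries the reelin signal, had a log2 difference of 0.40 (limma adjusted p = 0.573). Lrp8 had between 0 and 12 reads in each liver and was not tested.

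Hgf (ENSMUSG00000028864, chromosome 5, bases 16553495 to 16620152 of mm10) encodes hepatocyte growth factor, which stellate cells secrete and which binds Met on hepatocytes. Its normalized counts were 291, 198, 334 and 226 in LKO replicates 1 to 4 and 138, 248, 322 and 132 in F/F replicates 1 to 4. F/F replicates 1 and 4 were again the lowest of the 8 livers, and only LKO replicate 3 exceeded the highest F/F liver. On the log2 scale Hgf differed by 0.39 (SE 0.296, 95% confidence interval -0.27 to 1.06, limma adjusted p = 0.540), and by 0.23 without F/F replicate 1, 0.21 without F/F replicate 4 and 0.63 without F/F replicate 3. Met had 3760.1, 3679, 3936 and 3551 in LKO replicates 1 to 4 and 5209, 2743, 3348 and 3814 in F/F replicates 1 to 4, with every LKO liver inside the F/F range (0.02, limma adjusted p = 0.961). Hgfac, the protease that activates the growth factor, had 7432, 7136, 7269 and 6710.3 in LKO replicates 1 to 4 and 8401, 8348, 8472 and 9431 in F/F replicates 1 to 4. Every LKO liver was below every F/F liver, which held for 4.39% of the tested genes, although its limma test missed the threshold (log2 difference -0.28, adjusted p = 0.107).

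Ngfr (ENSMUSG00000000120, chromosome 11, bases 95568818 to 95587735 of mm10) encodes the low-affinity receptor for neurotrophins. Normalized counts of Ngfr were 83.8, 85.0, 87.0 and 97.8 in LKO replicates 1 to 4 and 62.7, 67.1, 105 and 57.9 in F/F replicates 1 to 4. The LKO livers lay close together, above 3 of the 4 F/F livers and below F/F replicate 3. LKO livers were higher by 0.31 on the log2 scale (SE 0.191, limma adjusted p = 0.460), by 0.49 without F/F replicate 3, by 0.16 after quantile normalization and by 0.46 with the same total in every liver. Sort1, which encodes a partner of this receptor, had 759, 977, 888 and 1378 in LKO replicates 1 to 4 and 734, 333, 509 and 723 in F/F replicates 1 to 4. Every LKO liver was above every F/F liver, which held for 5.48% of the tested genes, although its test missed the threshold (log2 difference 0.83, limma adjusted p = 0.185).

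Ntrk2, the receptor for brain-derived neurotrophic factor, was the only 1 of the 18 tested ligands and receptors of the members to pass the threshold. It had 648, 759, 556 and 531 in LKO replicates 1 to 4 and 27.4, 88.5, 114 and 19.6 in F/F replicates 1 to 4. The lowest LKO liver was above the highest F/F liver, and the log2 difference of 3.64 was higher than that of any of the 10 stellate cell genes (limma adjusted p = 0.0180). Over the list, 14 genes were higher and 4 lower, with a median of 0.34, or 0.48 with equal totals per liver and 0.18 if quantile normalized. The 1 call stood beside 0.769% of all tested genes. At an unadjusted p under 0.05 in limma there were 5 higher and 1 lower, beside 15.8%, and 3 passed in DESeq2, beside 3.70%.

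Ecm1 (ENSMUSG00000028108, chromosome 3, bases 95734147 to 95739569 of mm10) encodes a secreted matrix protein that binds latent transforming growth factor beta, and hepatocytes are known to make it as well. Normalized counts of Ecm1 were 2255, 2309.8, 2942 and 1852 in LKO replicates 1 to 4 and 2256, 5008, 4676 and 2517 in F/F replicates 1 to 4. F/F replicates 2 and 3 stood far above the other 6 livers, among which both groups mixed, and 2 LKO livers were below the lowest F/F liver. The log2 difference of -0.56 was the lowest of the 10 genes (SE 0.266, 95% confidence interval -1.16 to 0.04, limma adjusted p = 0.348), and it was -0.37 without F/F replicate 2.

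Des (ENSMUSG00000026208, chromosome 1, bases 75360329 to 75368579 of mm10) encodes desmin, the intermediate filament by which stellate cells are often stained in rodents. Its normalized counts were 155, 110.4, 201 and 166 in LKO replicates 1 to 4 and 100.3, 118, 107 and 108 in F/F replicates 1 to 4. The F/F livers lay within a 1.18-fold range, and LKO replicates 1, 3 and 4 were above all of them, while LKO replicate 2 lay among them. The log2 difference was 0.51 (SE 0.174, 95% confidence interval 0.12 to 0.90), with an unadjusted p in limma of 0.0156 and an adjusted p of 0.212. A two-sided exact permutation test over the 70 arrangements of the livers gave p = 0.0571, where the smallest possible is 0.0286.

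Pdgfra (ENSMUSG00000029231, chromosome 5, bases 75152292 to 75198215 of mm10) and Pdgfrb (ENSMUSG00000024620, chromosome 18, bases 61045150 to 61085061 of mm10) encode the receptors for platelet-derived growth factor, through which stellate cells are driven to divide and migrate. Normalized counts of Pdgfra were 333, 251, 371 and 334 in LKO replicates 1 to 4 and 100.3, 285, 219.7 and 130.5 in F/F replicates 1 to 4. LKO replicates 1, 3 and 4 were above every F/F liver, LKO replicate 2 was below F/F replicate 2, and the F/F livers spanned a 2.84-fold range. The log2 difference was 0.91 (SE 0.299, 95% confidence interval 0.24 to 1.58), with an unadjusted p in limma of 0.0130, an adjusted p of 0.198 and an exact permutation p of 0.0571.

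Pdgfrb had 428, 358, 476 and 601 in LKO replicates 1 to 4 and 212, 223, 241 and 305 in F/F replicates 1 to 4. All 4 LKO livers were above all 4 F/F livers, with LKO replicate 4 the highest and F/F replicate 1 the lowest, a separation that the other 9 genes did not show. The means were 466 ± 103 and 245 ± 41.7 (SD, n = 4 each). Pdgfrb was 1.88-fold higher in LKO livers (log2 difference 0.91, SE 0.169, 95% confidence interval 0.53 to 1.29), with a limma adjusted p of 0.0494 and an exact permutation p of 0.0286, the smallest that 4 against 4 livers can give. The adjusted p was close to the threshold and crossed it under small changes. It was 0.0505 with a pseudocount of 0.5, 0.0549 with a minimum mean of 20, 0.0674 after quantile normalization and 0.000172 in DESeq2, over a range from 0.000172 to 0.150 in 19 alternatives. Leaving out LKO replicate 1, 2, 3 or 4 gave 0.150, 0.0509, 0.119 and 0.113. Leaving out F/F replicate 1, 2 or 3 gave 0.0985, 0.127 and 0.101, and only without F/F replicate 4 did it pass (0.0275). The log2 difference stayed between 0.78 and 1.11 throughout.

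Per kilobase of exon, Pdgfrb was the more abundant receptor gene in every liver, by 2.34-fold to 3.29-fold in LKO livers and by 1.43-fold to 4.28-fold in F/F livers. The ligand gene Pdgfa had 192, 198, 187 and 154 in LKO replicates 1 to 4 and 128, 155, 155 and 177 in F/F replicates 1 to 4, with 3 LKO livers above every F/F liver (log2 difference 0.25, limma adjusted p = 0.377). Pdgfb had 49.2, 50.1, 49.6 and 67.6 in LKO replicates 1 to 4 and 34.2, 46.8, 57.8 and 29.4 in F/F replicates 1 to 4, and its groups overlapped (0.39, limma adjusted p = 0.440). Pdgfc and Pdgfd had log2 differences of 0.42 and 0.54 (limma adjusted p = 0.414 and 0.306), so that no ligand gene of the 4 passed the threshold.

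Rgs5 (ENSMUSG00000026678, chromosome 1, bases 169655501 to 169695813 of mm10) encodes a regulator of G protein signalling by which pericytes are recognised. Normalized counts of Rgs5 were 833, 787, 709 and 809 in LKO replicates 1 to 4 and 548, 768, 824 and 582 in F/F replicates 1 to 4. The LKO livers lay within a 1.17-fold range, inside the upper part of the F/F range except for LKO replicate 1, and F/F replicates 1 and 4 were the lowest of the 8. On the log2 scale Rgs5 differed by 0.22 (SE 0.135, limma adjusted p = 0.446), by 0.13 without F/F replicate 1 and by 0.38 with the same total in every liver.

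Hand2 (ENSMUSG00000038193, chromosome 8, bases 57320983 to 57324633 of mm10) encodes a transcription factor of the basic helix-loop-helix family. Its normalized counts were 244, 274, 399 and 277 in LKO replicates 1 to 4 and 197, 322, 290.1 and 237 in F/F replicates 1 to 4. Only LKO replicate 3 exceeded the highest F/F liver, and the log2 difference was 0.19 (SE 0.189, limma adjusted p = 0.650), or 0.04 without that liver, 0.06 without F/F replicate 1 and 0.30 without F/F replicate 2. Exons of Hand2os1, on the opposite strand, share 461 bases with Hand2, or 19.6% of its exon bases. Hand2os1 had 302, 228, 329.8 and 316 in LKO replicates 1 to 4 and 148, 300.0, 218 and 167 in F/F replicates 1 to 4 (log2 difference 0.53, limma adjusted p = 0.282), and the strand of the reads is not given in the sources used here, so reads in the shared bases cannot be assigned from these values. No other member shared more than 6.74% of its exon bases with another gene (Hgf, with Gm43489 on the same strand, which had at most 4 reads in a liver).

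Hand2 and other factors of its family bind the E-box, spelled CANNTG, which reads the same on both strands. Promoters of the 10 genes were searched for it to see what sequence the members share beyond the rule that chose them. The RefSeq promoter table matched 9 of the 10 genes, all but Pdgfrb (build GRCm38.p6, 300 bases for each start site), with 10 promoters, since Hgf has more than 1. CANNTG was found in 9 of the 10 promoters, beside 72.3% of all 32851 promoters of that length. GATAA, bound by GATA factors, was found on either strand in 3 of the 10 (Des, Hand2 and Rgs5), beside 25.4%. GGAATG, bound by TEAD factors, was found in 1 (Lrat), beside 14.7%, and the CArG box, bound by serum response factor, in 0, beside 1.63%. The promoters of Des and Pdgfra are shown, since with Pdgfrb these genes had the highest differences: chr1:75360042-75360341 (+) for Des and chr5:75152001-75152300 (+) for Pdgfra, 5′ to 3′, with each CANNTG in capitals. Both hold 2 matches, which describe the sequence and do not show that a factor binds there.
Des: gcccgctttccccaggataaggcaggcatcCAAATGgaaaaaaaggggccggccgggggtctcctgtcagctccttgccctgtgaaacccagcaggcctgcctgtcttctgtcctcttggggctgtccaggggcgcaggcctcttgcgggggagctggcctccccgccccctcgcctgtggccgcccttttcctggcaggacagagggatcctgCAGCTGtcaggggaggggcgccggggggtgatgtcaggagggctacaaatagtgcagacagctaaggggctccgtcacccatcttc
Pdgfra: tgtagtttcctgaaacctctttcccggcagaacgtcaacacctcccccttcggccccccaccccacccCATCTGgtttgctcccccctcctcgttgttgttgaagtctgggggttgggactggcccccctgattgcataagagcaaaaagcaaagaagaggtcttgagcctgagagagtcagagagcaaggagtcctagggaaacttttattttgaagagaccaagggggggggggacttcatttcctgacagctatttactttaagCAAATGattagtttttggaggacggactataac

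Several members shared an order of livers within a group, which is given as counts and was not tested. In the F/F group replicates 1 and 4 were the lower pair for 7 of the 10 genes (Reln, Hgf, Pdgfra, Rgs5, Ngfr, Hand2 and Ecm1), beside 28.0% of all tested genes, and Lrat, Des and Pdgfrb each had another lower pair. F/F replicate 1 was the lowest of all 8 livers for 6 genes, beside 13.7%. In the LKO group replicate 3 was the highest for 7 genes, beside 24.1%, and replicate 2 was in the lower pair for 9, beside 48.5%. Sums of the 10 genes were 7716, 6681, 9214 and 6379 in LKO replicates 1 to 4 and 5156, 9917, 10324 and 5757 in F/F replicates 1 to 4, of which Ecm1 made up 39.0% on average. F/F replicates 1 and 4 thus had the lowest sums and F/F replicates 2 and 3 the highest, with the LKO livers between them. That order rested on Ecm1: without it the sums were 5461, 4371, 6272 and 4526 in LKO replicates 1 to 4 and 2899, 4909, 5648 and 3239.9 in F/F replicates 1 to 4, so that LKO replicate 3 was the highest and F/F replicates 1 and 4 were still the lowest. The members lie on 6 chromosomes, with 3 of them (Hgf, Reln and Pdgfra) on chromosome 5.

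**Figure D3:**
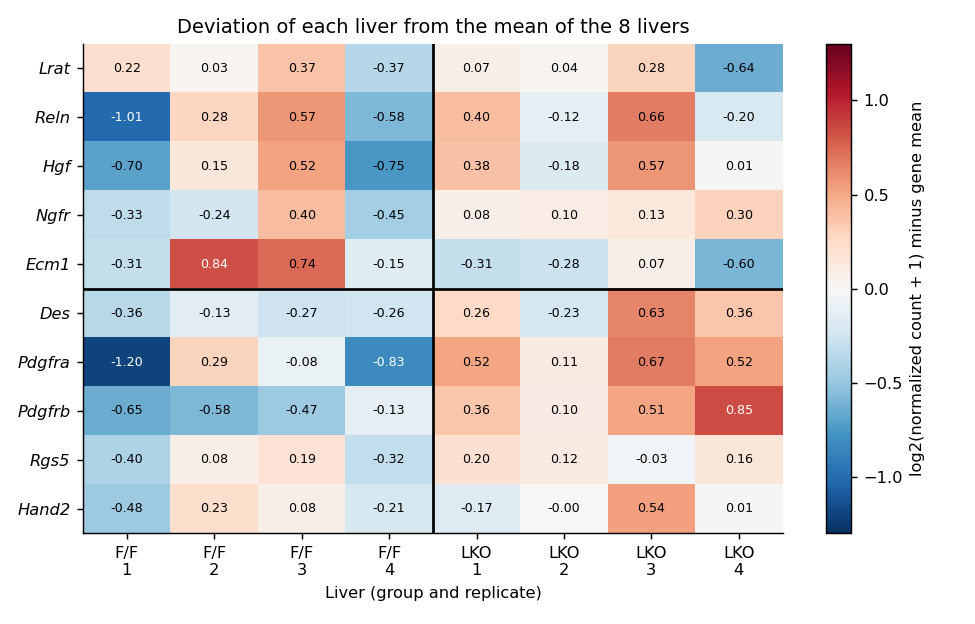
Log2 deviation of each stellate cell gene in each liver from the mean of that gene over the 8 livers (colour and number), with livers in columns and genes in rows. F/F replicates 1 and 4 are the lower pair of their group for 7 of the 10 genes.

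F/F replicates 1 and 4 were the lower pair of their group in the sums of 5 of 15 other lists, the upper pair in 6 and neither in 4. They were the upper pair for further quiescent stellate genes, portal fibroblasts, cholangiocytes, macrophages, lymphocytes, and the ligands and receptors of the members, and the lower pair for zonated stellate genes, vascular smooth muscle, sinusoidal endothelium, hepatocytes and the retinoid genes. The order for the further quiescent genes rested on Steap4, 41.0% of that sum, with 9323, 3197, 4317 and 12388 in F/F replicates 1 to 4. Without Steap4, F/F replicates 1 and 4 were the lower pair there. Gas6 made up 67.5% of the portal fibroblast sum. Sums of the 12 genes of sinusoidal endothelium were 14189, 11071, 12022 and 10144 in LKO replicates 1 to 4 and 8736, 11919, 13186 and 9173 in F/F replicates 1 to 4, with Stab1 the most abundant and no gene at 0 reads in any liver. All 12 were higher in LKO livers (11 in DESeq2), beside 48.0% of all tested genes. Their median log2 difference was 0.17 (0.33 with the same total in every liver). Of the 12, 0 passed the threshold in limma, DESeq2 or edgeR, beside 0.769% in limma and 3.70% in DESeq2. At an unadjusted p under 0.05 in limma there were 0, beside 15.8%. The 10 hepatocyte genes, with Alb the most abundant, summed to 2515155, 2556631, 3178879 and 2295369.6 in LKO replicates 1 to 4 and 2906769, 4436782, 3692204 and 3311539 in F/F replicates 1 to 4. Of these 8 were lower and 2 higher in LKO livers (7 lower after quantile normalization), beside 48.0% of all tested genes higher. In limma, DESeq2 or edgeR 0 passed the threshold, beside 0.769% in limma and 3.70% in DESeq2. At an unadjusted p under 0.05 there were 2, beside 15.8%. The median was -0.34, or -0.19 with equal totals per liver and -0.13 if quantile normalized. F/F replicate 1 had the fewest reads in all (26280884) and F/F replicate 4 had 31455553. The part of these lists and of depth in the pattern was not tested.

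The balance of the quiescent and the general genes in a liver was taken as the mean log2 normalized count of the former minus that of the latter, a value that hardly depends on how a liver is scaled. It was 0.80, 0.81, 0.79 and 0.31 in LKO replicates 1 to 4 and 1.11, 1.15, 1.55 and 0.80 in F/F replicates 1 to 4. A higher value means more RNA of the quiescent genes relative to the general genes. LKO replicate 4 was the lowest, and F/F replicate 3 the highest. The LKO mean was 0.68 ± 0.247 and the F/F mean 1.15 ± 0.306 (SD, n = 4 each), a difference of -0.47. Of the LKO livers, 2 were below the lowest F/F liver. The quiescent mean differed by 0.08 between the groups and the general mean by 0.55. General means were 8.41, 8.20, 8.64 and 8.56 in LKO replicates 1 to 4 and 7.56, 8.16, 8.07 and 7.83 in F/F replicates 1 to 4, without overlap of the groups, and quiescent means ran from 8.87 to 9.44 in LKO and from 8.63 to 9.61 in F/F livers, with overlap. The gap between the general means was narrow, from 8.16 to 8.20, and unlike the balance these means depend on how a liver is scaled. Without Ecm1 the balance was 0.17 ± 0.239 in LKO and 0.48 ± 0.318 in F/F livers, a difference of -0.31.

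**Figure D4:**
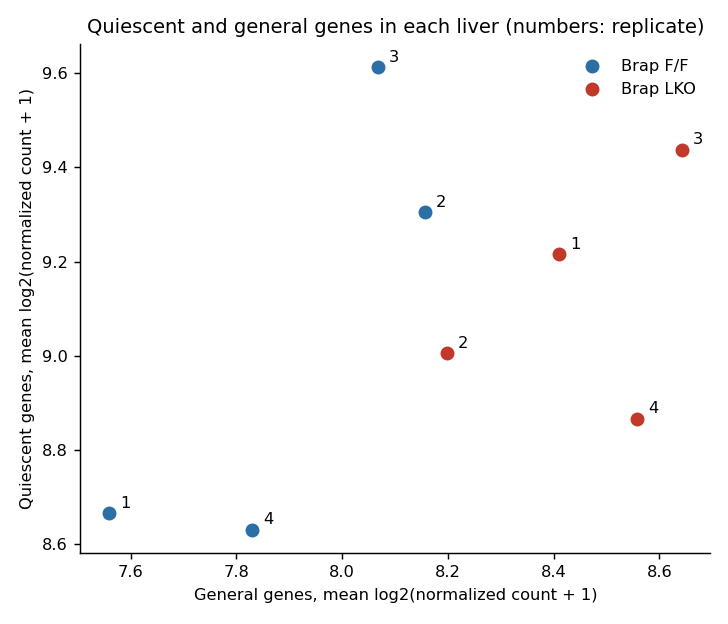
Mean log2(normalized count + 1) of the 5 quiescent genes (vertical axis) against that of the 5 general genes (horizontal axis) in each liver, coloured by group and numbered by replicate. All 4 LKO livers lie to the right of all 4 F/F livers, with general means of 8.20 to 8.64 against 7.56 to 8.16, while the quiescent means overlap.

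Further genes of stellate cells were read from lists that do not include the 10. Of 19 further genes of quiescent stellate cells, all 19 tested, 10 were higher and 9 lower. Their median was 0.00, which was 0.16 with the same total in every liver and -0.06 after quantile normalization. In limma and edgeR 0 passed the threshold, beside 0.769% of all tested genes in limma. With equal totals per liver 1 passed in limma, beside 479 of all 15352 tested genes. In DESeq2 1 passed, beside 3.70%. In limma 4 higher and 3 lower genes had an unadjusted p under 0.05, beside 15.8%. Sums were 13261, 13688, 15988 and 16472 in LKO replicates 1 to 4 and 15409, 14252, 14921 and 19963 in F/F replicates 1 to 4, with Steap4 (-0.26) and Dcn (0.37) the most abundant, and 4 of the 19 genes were also in other lists. Steap4 made up 41.0% of the sum.

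Genes that mark stellate cells near the portal or the central vein numbered 9, of which Dach1 (0 reads in at least 1 liver) was not tested. Of the other 8, 7 were higher, with a median of 0.45. In limma 2 passed the threshold, beside 0.769% of all tested genes, and after quantile normalization 1 did. At an unadjusted p under 0.05 there were 5, beside 15.8%, and 3 passed in DESeq2, beside 3.70%. For 5 of the 8 every LKO liver was above every F/F liver, beside 5.48%. Sums were 1868, 1634, 1977 and 2079 in LKO replicates 1 to 4 and 1079.7, 1607, 1497 and 1113 in F/F replicates 1 to 4. Adamtsl2, a secreted protein that binds fibrillin and is the most abundant of them, had 607, 508, 711 and 754 in LKO replicates 1 to 4 and 236, 371, 306 and 287 in F/F replicates 1 to 4. Its groups did not overlap (log2 difference 1.10, limma adjusted p = 0.0248). Loxl1, which crosslinks elastin, had 116, 86.6, 102 and 201 in LKO replicates 1 to 4 and 38.8, 28.5, 30.5 and 56.9 in F/F replicates 1 to 4, and its groups did not overlap either (1.66, limma adjusted p = 0.0446). Igfbp3, the next most abundant, had a log2 difference of 0.10.

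Of 21 genes of activated stellate cells and myofibroblasts, 19 were tested, 18 were higher and 1 lower, with a median of 0.71. Mmp2, a gelatinase made by activated stellate cells, was the 1 of 19 past the threshold, beside 0.769% of all tested genes. With the same total in every liver 6 of the 19 passed in limma, beside 479 of all 15352 tested genes. With the size factors, 11 higher and 1 lower had an unadjusted p under 0.05, beside 15.8%, and 7 passed in DESeq2, beside 3.70%. The lower gene, named after its values were seen, was Postn (log2 difference -0.84, limma adjusted p = 0.253). Normalized counts of Mmp2 were 159, 102, 166 and 190.3 in LKO replicates 1 to 4 and 22.8, 47.8, 50.5 and 54.9 in F/F replicates 1 to 4. Even the lowest LKO liver was above the highest F/F liver (log2 difference 1.83, limma adjusted p = 0.0331). The sums of the list were 4850.4, 3469, 5196 and 5912 in LKO replicates 1 to 4 and 2402, 3038, 3176 and 3189 in F/F replicates 1 to 4, and all 4 LKO livers were above all 4 F/F livers. Col3a1, the most abundant, had a log2 difference of 1.04 (limma adjusted p = 0.137), and Vim had one of 0.67 (limma adjusted p = 0.104).

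**Figure D5:**
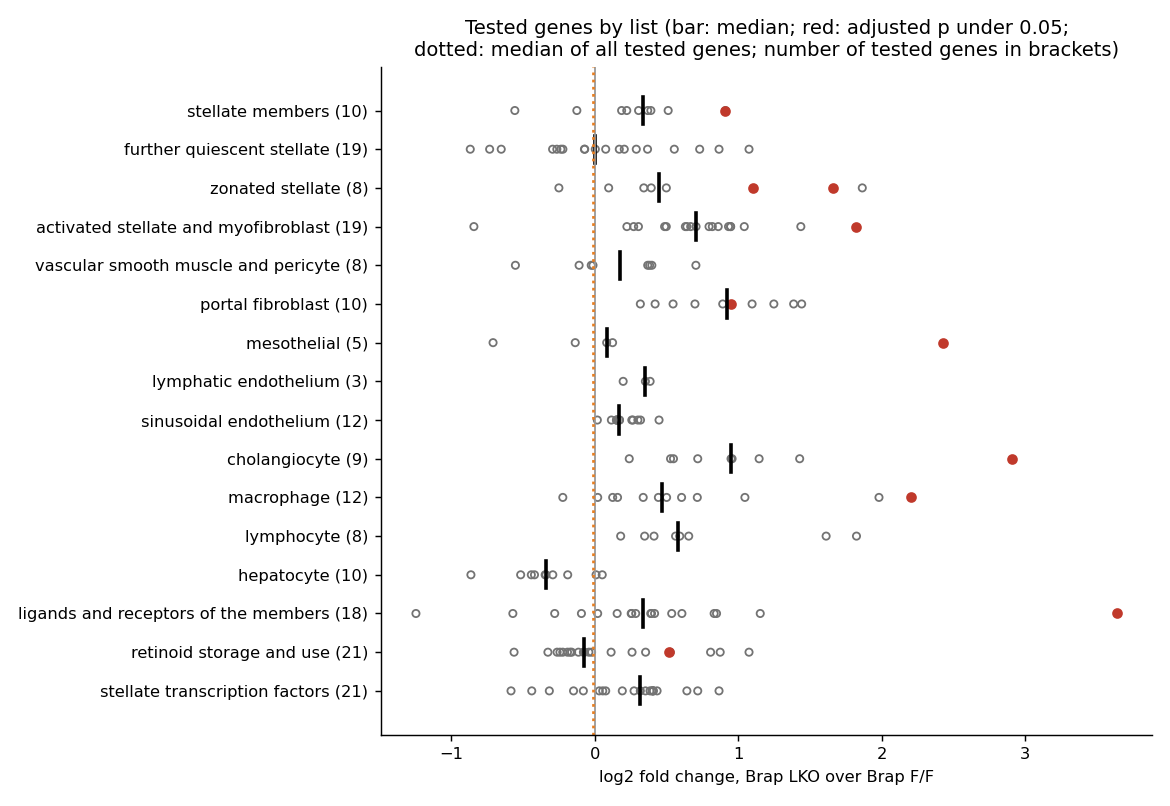
Log2 fold change, Brap LKO minus Brap F/F, of each tested gene in lists of cell type or pathway genes (points, red where the limma adjusted p is under 0.05), with the median of the list (black bar). The median is 0.34 for the 10 stellate cell genes, 0.00 for the further quiescent genes and 0.71 for the activated stellate and myofibroblast genes; all tested genes have a median of -0.01.

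Pdgfrb, Pdgfra, Des and Rgs5 are also made by other cells around vessels and ducts, so lists for those cells were read beside them. Of 13 genes of vascular smooth muscle and pericytes, 11 were in the table and 8 were tested. Of these 4 were higher and 4 lower (7 higher with the same total in every liver), beside 48.0% of all tested genes higher. In limma, DESeq2 or edgeR 0 passed the threshold, beside 0.769% in limma and 3.70% in DESeq2. At an unadjusted p under 0.05 there was 1, beside 15.8%. The median was 0.18 (0.33 with the same total). Sums were 7031, 6628, 6950.4 and 5956 in LKO replicates 1 to 4 and 5540.1, 7373, 7359 and 5756 in F/F replicates 1 to 4, with Mylk (-0.02) and Abcc9 (0.40) the most abundant. Cnn1 and Cspg4 had 0 reads in at least 1 liver, and Mylk made up 79.6% of the sum.

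Of 13 genes of portal fibroblasts, 10 were tested and all 10 were higher, with a median of 0.92. In limma 1 passed the threshold, beside 0.769% of all tested genes, and 0 did after quantile normalization. With the same total in every liver 3 did, beside 479 of all 15352 tested genes. At an unadjusted p under 0.05 in limma there were 6, beside 15.8%, and 4 passed in DESeq2, beside 3.70%. Fbln2, a matrix protein of elastic fibres, was the gene past the threshold, with 110.2, 96.8, 113 and 113 in LKO replicates 1 to 4 and 43.3, 52.9, 69.4 and 59.9 in F/F replicates 1 to 4. Its groups did not overlap (log2 difference 0.95, limma adjusted p = 0.0402). Sums were 2080.4, 1691, 1978 and 3083 in LKO replicates 1 to 4 and 1575, 1200.1, 1412 and 1792 in F/F replicates 1 to 4, with Gas6 (0.32) the most abundant and then Dpt (1.44, limma adjusted p = 0.0881), and Clec3b, Pi16 and Mfap5 each had 0 reads in at least 1 liver. LKO replicate 4, the highest for Pdgfrb, was also the highest in that sum. It was the highest as well in the sums of the zonated stellate, activated stellate, mesothelial, lymphatic endothelium and cholangiocyte lists, and not in those of the other lists.

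The 5 mesothelial genes summed to 113, 59.5, 191 and 202 in LKO replicates 1 to 4 and 41.0, 143, 135 and 151 in F/F replicates 1 to 4, with 3 higher and 2 lower and a median of 0.08 (1 higher and -0.10 after quantile normalization, and a median of 0.24 with the same total in every liver). In limma 1 passed the threshold, beside 0.769% of all tested genes, as did 1 in DESeq2, beside 3.70%. Wt1, a transcription factor of mesothelium that stellate cells derived from it can also carry, had 40.1, 28.9, 53.6 and 51.0 in LKO replicates 1 to 4 and 5.70, 9.15, 4.20 and 10.8 in F/F replicates 1 to 4. The groups were well separated (log2 difference 2.43, limma adjusted p = 0.0177). Upk3b and Gpm6a, the most abundant of these genes, had log2 differences of -0.71 and 0.08. The part of these cell types in the differences of the stellate cell genes was not tested.

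For the remaining cell types most tested genes were higher in LKO livers. The 10 cholangiocyte genes, with Spp1 (0.95) the most abundant, had 9 tested, all 9 higher and a median of 0.95. Of the 9, 1 passed the threshold in limma (0 after quantile normalization), 7 had an unadjusted p under 0.05 and 3 passed in DESeq2, beside 0.769%, 15.8% and 3.70% of all genes. Sums were 2551, 2460.2, 2164 and 4149.7 in LKO replicates 1 to 4 and 1804, 1448, 1372 and 2313 in F/F replicates 1 to 4, and 1 gene was in another list as well. Cftr was past the threshold (limma adjusted p = 0.0331), with 0 to 2 reads in each F/F liver and 6 to 19 in each LKO liver, and Ggt1 also had 0 reads in at least 1 liver. The 12 macrophage genes, with Clec4f (0.02) the most abundant, had 11 higher, a median of 0.47 and sums of 11356, 9356, 6301 and 7936 in LKO replicates 1 to 4 and 6836, 6725, 6406 and 8910.3 in F/F replicates 1 to 4, which overlapped, with LKO replicate 3 below every F/F liver. Of the 12, 1 passed the threshold in limma (0 after quantile normalization and 2 with equal totals per liver). The count with equal totals, here and in the next 2 lists, stands beside 479 of all 15352 tested genes. Another count, at an unadjusted p under 0.05, was 5, and 3 passed in DESeq2. Gpnmb, a gene of lipid-laden macrophages, was past the threshold with 31.0, 17.8, 32.4 and 36.4 in LKO replicates 1 to 4 and 3.42, 6.10, 3.15 and 11.8 in F/F replicates 1 to 4, and its groups did not overlap (2.20, limma adjusted p = 0.0480). The 8 lymphocyte genes, with Ptprc (0.66), also a gene of other leukocytes, the most abundant, were all higher (7 of 8 after quantile normalization), with a median of 0.58. Of the 8, 0 passed the threshold in limma or edgeR (1 in limma with equal totals per liver) and 2 in DESeq2. At an unadjusted p under 0.05 there were 3. The lymphocyte sums were 634, 485, 388 and 552 in LKO replicates 1 to 4 and 387, 315, 278 and 339 in F/F replicates 1 to 4, of which Ptprc made up 63.9%. Of the 4 genes of lymphatic endothelium 3 were tested and all 3 were higher, with a median of 0.35. Of the 3, 0 passed the threshold in limma or edgeR (1 in limma with equal totals per liver) and 1 in DESeq2. At an unadjusted p under 0.05 in limma there was 1. Their sums were 9345, 9904, 9537 and 10253 in LKO replicates 1 to 4 and 8633, 7860.4, 7429.9 and 7179 in F/F replicates 1 to 4, of which Prox1 (0.35), also a hepatocyte gene, made up 87.7%, and Ccl21a had 0 reads in at least 1 liver. Their part in the values of the stellate cell genes was not tested.

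Transcription factors of stellate cells formed a list of 22, of which 21 were tested, 16 were higher and 5 lower, with a median of 0.32. Quantile normalization gave a median of 0.21, and equal totals per liver one of 0.48. In limma and edgeR 0 passed the threshold, beside 0.769% of all tested genes in limma. With equal totals per liver 2 passed in limma, beside 479 of all 15352 tested genes. In DESeq2 1 passed, beside 3.70%. Genes with an unadjusted p under 0.05 in limma were 6 higher and 1 lower, beside 15.8%. Sums were 12696, 12388, 13433 and 12422 in LKO replicates 1 to 4 and 12472, 11635, 11743 and 11189 in F/F replicates 1 to 4. Nr1h4 (0.03), also a hepatocyte gene, was the most abundant, followed by Nr2f2 (0.27), and 3 genes were in other lists too.

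The calls of the 9 list genes past the threshold changed with single livers and with other settings. With 1 liver left out, the limma adjusted p of Adamtsl2 ran from 0.0293 to 0.0805 (4 of 8 past the threshold), that of Wt1 from 0.0142 to 0.0685 (4 of 8 past the threshold) and that of Ntrk2 from 0.0115 to 0.0739 (4 of 8 past the threshold). Mmp2 ran from 0.0275 to 0.125 (3 of 8 past the threshold) and Cftr from 0.0416 to 0.133 (3 of 8 past the threshold). Fbln2 ran from 0.0445 to 0.146 (2 of 8 past the threshold), Loxl1 from 0.0238 to 0.150 (1 of 8 past the threshold), Gpnmb from 0.0164 to 0.165 (1 of 8 past the threshold) and Rarg from 0.0494 to 0.152 (1 of 8 past the threshold). Adamtsl2 missed it without any 1 of LKO replicates 1, 3 and 4 and F/F replicate 3. Loxl1, Gpnmb and Rarg each missed it without any 1 of LKO replicates 1, 2, 3 and 4 and F/F replicates 1, 2 and 3. Mmp2 missed it without any 1 of LKO replicates 1, 3 and 4 and F/F replicates 2 and 3. Fbln2 missed it without any 1 of LKO replicates 1, 2, 3 and 4 and F/F replicates 1 and 2. Wt1 missed it without any 1 of LKO replicates 1, 3 and 4 and F/F replicate 2. Cftr missed it without any 1 of LKO replicates 1, 2 and 4 and F/F replicates 1 and 2. Ntrk2 missed it without any 1 of LKO replicates 1, 2, 3 and 4. Of the 11 other settings, all kept the calls of Mmp2, Wt1 and Ntrk2. After quantile normalization Loxl1 (adjusted p = 0.0677), Fbln2 (0.0816), Cftr (0.0594), Gpnmb (0.0657) and Rarg (0.0841) missed the threshold in limma. With the replicate number as a block Adamtsl2 (adjusted p = 0.0508), Fbln2 (0.0647), Cftr (0.0771), Gpnmb (0.0659) and Rarg (0.0808) missed it in limma. Rarg also missed it with no minimum (0.0542) and with the animal-number covariate (0.0796), Loxl1 with a minimum mean of 20 (0.0505) and Gpnmb with a pseudocount of 0.5 (0.0505). The log2 difference stayed above 0 in all 19 alternatives for 7 of the genes, and in all 18 that gave a value for Cftr and Gpnmb, which a minimum mean of 20 left out.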

How the data were processed

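The authors sequenced RNA from 8 livers, aligned the reads with STAR 2.6.0c to mm10, and deposited a table of signal per gene: reads divided by the DESeq2 size factor that they computed for each liver. How reads were counted, on which annotation and on which strand is not given in the sources used here. A second deposited table holds their own comparison and was not used. Dividing by the value of 1 read gave whole numbers for 100% of values (tolerance 0.01), which recovered the reads. No column was left out.

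Of 24451 genes, 15352 had a mean normalized count of at least 5. They were compared on log2(value + 1), which understates folds of low genes, with limma 3.58.1 (eBayes with trend, R 4.3.3), Benjamini-Hochberg adjustment over all tested genes and a threshold of 0.05. Single genes also had a two-sided exact permutation test. Tables and figures used Python 3.11.15, numpy 2.4.6, pandas 2.3.3 and matplotlib 3.10.9, and the steps were tested on simulated data. Exon lengths and overlaps came from GENCODE vM21, where 24430 genes were found.

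Genes were named by rule: the 10 members, in each of 16 other lists the genes past the threshold and the 2 most abundant, direct partners of members, Brap, and genes overlapping a member. Genes at 0 reads were named after their values were seen. For some named genes and 1 list the results are not reported here. The members and lists were chosen with earlier results of these data known. Alternatives were other pseudocounts, filters, scalings, edgeR 4.0.16 and DESeq2 1.42.0 on recovered reads, a replicate block, an animal-number covariate, and leaving out each liver.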

Additional observations from a re-analysis of the deposited data

Results flagged for a closer look

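Among the members and named genes, 134 groups of 4 livers were examined for a liver far from the other 3, of which chance gives about 1 in 20, or 6.7. There were 5, and none was in the 10 stellate cell genes. Pdgfb had 67.6 normalized counts in Brap LKO replicate 4, against 49.2 to 50.1 in the other LKO livers. Gas6 had 1993 in the same liver, against 1127 to 1240. Cftr had 6.07 (6 reads) in Brap LKO replicate 3, against 16.1 to 17.7. Dab1 had 5.26 (5 reads) in Brap F/F replicate 3, against 6.84 to 7.12 in the other F/F livers. Hgfac had 9431 in Brap F/F replicate 4, against 8348 to 8472.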

How the results depend on the processing

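The count of stellate cell genes past the threshold, 1 of 10, was 0 with a pseudocount of 0.5, a minimum mean of 20 or quantile normalization, and 0 to 1 with 1 liver left out (1 only without Brap F/F replicate 4). It was 1 under the other 8 settings and at an adjusted p under 0.1. The median log2 difference stayed above 0, from 0.18 (without F/F replicate 1; 0.21 without F/F replicate 4) to 0.50 (without F/F replicate 3). Of the 10 genes, 9 kept their sign in all 19 alternatives, and Lrat did not, with 0.03 at the same total per liver and 0.07 without LKO replicate 4. That scaling moved the median of all tested genes from -0.01 to 0.15, and that of the 10 genes to 0.49. The balance of quiescent and general genes, whose alternatives were chosen after seeing the data, ran from -0.59 to -0.31. Over all tested genes 118 were past the threshold, 78 after quantile normalization, 607 in DESeq2, 479 with the same total per liver (459 higher, 20 lower), and 18 (without LKO replicate 1 or F/F replicate 2) to 232 (without F/F replicate 4) with 1 liver left out. With the replicate number as a block, 1 stellate cell gene passed (Pdgfrb, adjusted p = 0.0219, within 0.000172 to 0.150 over its alternatives), the median was 0.34, and 95 of all genes passed. Livers that shared a number had correlations of -0.13, 0.00, 0.20 and 0.29, so the number is not shown to mark a pair. The cause of these shifts was not tested, except that leaving out a liver leaves fewer livers. Intervals for the 4 livers of each group limit what could be detected: that of Reln ran from -0.40 to 1.13.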
